A study of Sus scrofa with 207 samples.

Results

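The genes described here encode the steps by which muscle mitochondria burn fatty acids and run the tricarboxylic acid (TCA) cycle. They are 40 named genes, and a gene counted as measured when the array carried a probe set whose only gene symbol was that gene. By this rule 37 of the 40 genes were measured, out of 6765 genes with such a probe set, and where a gene had several probe sets the brightest over all arrays stood for it. The 3 others, CD36, MLYCD and ACAT1, had no probe set with that symbol alone and were not analysed here. The 37 fall into 4 genes of fatty acid uptake and activation, 2 nuclear receptors, 14 genes of beta-oxidation, 4 subunits of the pyruvate dehydrogenase complex and 13 genes of the TCA cycle. The 13 include MDH1, the cytosolic malate dehydrogenase, so every median, mean and count for the cycle includes it.

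In beta-oxidation, long-chain fatty acids that have been taken up and bound to coenzyme A are shortened inside the mitochondrion by repeated rounds of dehydrogenation, hydration, dehydrogenation and cleavage, each of which releases acetyl-CoA. The electron transfer flavoprotein passes electrons from the acyl-CoA dehydrogenases to the respiratory chain, while pyruvate dehydrogenase makes acetyl-CoA from pyruvate instead. Acetyl-CoA from either source enters the TCA cycle at citrate synthase. In skeletal muscle this machinery is richest in slow, oxidative fibres, and fatty acids themselves act on it through the PPAR receptors.

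The samples were muscle of 207 crossbred pigs of a commercial herd labelled Pix(DLxDE), slaughtered at 110 kg on average, with 1 Affymetrix Porcine Genome Array per animal. There was no treatment and no control group, and age is not given in the sources used here. Each animal carried 2 measurements, both made on the longissimus dorsi: the fat area over the muscle (8.1 to 26.7 cm2, mean 15.0 ± 3.15, SD) and the drip loss, the share of weight that a hanging meat sample lost in the cold (1.45 to 10.82%, mean 5.37 ± 2.22, SD, n = 207). Fat area was missing for 8 of the 207 animals, which are left out of every value on that trait. Since each array is 1 animal, p-values measure the spread between these animals, whose kinship was not known here.

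The values are the deposited log2 expression values, with a floor at 4, and array medians lay between 5.96 and 6.18. Fibre markers were bright: 8 of 9 slow and 8 of 8 fast fibre markers lay above the median of all probe sets. Markers of other cells were also measurable, with 5 of 8 adipocyte, 11 of 12 endothelial, 5 of 7 macrophage, 3 of 3 red blood cell and 5 of 7 fibroblast markers above that median, and no marker at the floor on every array. The ranges of the list means over the animals were 7.57 to 8.62 for adipocytes, 6.70 to 7.71 for endothelium, 5.99 to 8.23 for macrophages, 6.78 to 7.79 for red blood cells and 6.72 to 8.74 for fibroblasts. On 24 arrays the median of the correlations with all others was more than 3 scaled median absolute deviations below the typical 0.978, down to 0.944. These low-correlation arrays matter for the genes below, so results that rest on them are also given over the remaining arrays. Title numbers fell into a higher series of 33 animals and a lower series that held the rest, and into 10 blocks of 100 numbers. What the numbers stand for is not given in the sources used here.

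The genes differed in how far they varied from pig to pig. FABP3, the muscle fatty acid-binding protein, had a lowest value of 10.81, a median of 11.88 and a highest of 13.27, so that the 95th percentile was 2.44 times the 5th. LPL, the lipase that frees fatty acids from lipoproteins at the vessel wall, ran from 7.75 through a median of 9.06 to 10.42, a ratio of 2.81 between the same percentiles. The 4 uptake and activation genes had the largest median SD of any role (0.39), above the 14 beta-oxidation genes (0.29), the pyruvate dehydrogenase subunits (0.24) and the 13 TCA cycle genes (0.20), against 0.25 over all 6765 genes. These are spreads of single probe sets whose brightness differs, and they were not tested against each other.

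Among the beta-oxidation genes, ACADM, the medium-chain acyl-CoA dehydrogenase, ran from 9.44 through 10.65 to 11.88, with a ratio of 2.33 between the 95th and 5th percentiles. HADH, the short-chain hydroxyacyl-CoA dehydrogenase, stayed between 11.15 and 12.04, with a ratio of 1.40. In the TCA cycle the lowest ratio was that of IDH3B, a subunit of the NAD-dependent isocitrate dehydrogenase, at 1.36, close to MDH2 at 1.40 and IDH2 at 1.43. SUCLA2 and SUCLG2, the ATP- and GTP-forming beta subunits of succinyl-CoA ligase, had the highest ratios there, 2.07 and 2.06. CS, citrate synthase, often used as an index of mitochondrial content, lay between 11.65 and 12.77 with a median of 12.12.

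**Figure D1:**
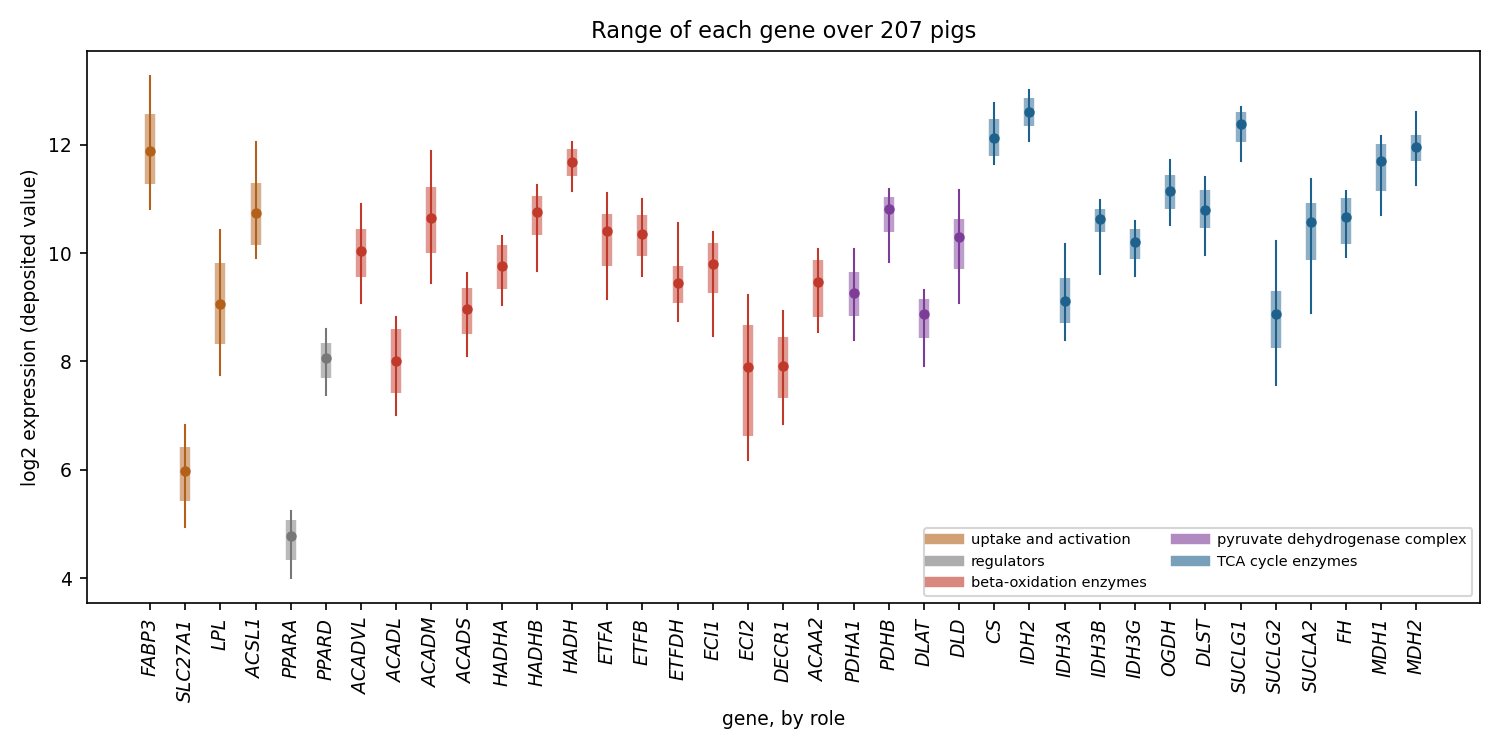
Deposited log2 expression of the 37 measured genes over 207 pigs, 1 column per gene in the order of their roles. Points mark the median, thick bars the 5th to 95th percentile and thin lines the lowest and highest animal; ECI2 and LPL spread widely, HADH and IDH3B little, and heights of different genes are not comparable because each is read by its own probe set.

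A few genes need care because their probe sets disagreed or were dim. PPARA, the fatty acid receptor, was below the median brightness of all probe sets on all 207 arrays, and its 2 probe sets did not follow each other (r = -0.021). SLC27A1, a fatty acid transport protein, had a median of 5.97 against a median of 6.10 over the means of all probe sets. Probe sets of the same gene correlated at 0.83 for LPL, at 0.81 and 0.72 for HADHB, at 0.72 for ETFDH and at 0.71 for CS, but at 0.23 for ACADVL, 0.12 for IDH3A, 0.11 for ECI2 and -0.22 and 0.071 for PPARD.

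ECI2, an enoyl-CoA isomerase needed for unsaturated fatty acids, was the most variable of the 37 genes and had values in 2 groups. With the thinnest point of the distribution at 7.415, 60 animals lay below it with a median of 6.81 and the others above it with a median of 8.03, a ratio of 2.34. The gene was singled out after its values were seen. Its correlation with its mitochondrial counterpart ECI1 was 0.034 in the lower group and 0.30 in the upper group, so no correlation of this pair over all animals is given. Slopes, ranges and averages that include ECI2 pool both groups. None of its 36 pairs had r above 0.5.

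The 37 genes moved together far more than genes in general, which were not matched to them for brightness. Of the 37, 35 had a mean above the median of all probe sets. Over the 666 pairs of the 37 genes the median Pearson correlation across the 207 animals was 0.18, against 0.0059 over all 22879230 pairs of the 6765 genes. Of the 666 pairs, 16.8% exceeded 0.5, against a background of 1.43%. In permutation tests with 100000 permutations, two-sided and adjusted over the 666 pairs, 351 pairs were correlated positively and 70 negatively. The smallest correlation that passed had a size of 0.15, and of all gene pairs 20.5% lay above it and 16.4% below its negative, so the excess was on the positive side. Without the 24 low-correlation arrays the share of pairs above 0.5 was 11.6%, against 0.722% of all pairs, and 69 of the pairs stayed above 0.5. With the blocks of title numbers taken out, 100 of the pairs stayed above it. The 33 measured subunits of respiratory complex I, which accepts NADH from these pathways, had a higher median among themselves, 0.48 over 528 pairs.

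Pairs that crossed from beta-oxidation to the TCA cycle had a median like that of pairs inside either pathway. The median correlation was 0.25 within the 14 beta-oxidation genes (91 pairs), 0.21 within the 13 TCA cycle genes (78 pairs) and 0.26 between them. The 4 pyruvate dehydrogenase subunits formed the tightest role, with all 6 pairs between 0.45 and 0.77 and a median of 0.65. The uptake genes were looser, at 0.16 among themselves. The 2 receptors PPARA and PPARD had medians of 0.016 with beta-oxidation and 0.039 with the TCA cycle. Single pairs ran from -0.32 (PPARD and ETFDH) to 0.19 with beta-oxidation and from -0.31 to 0.22 with the cycle. Because PPARA was dim and the PPARD probe sets disagreed, these medians do not settle how far the receptors followed the enzymes.

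**Figure D2:**
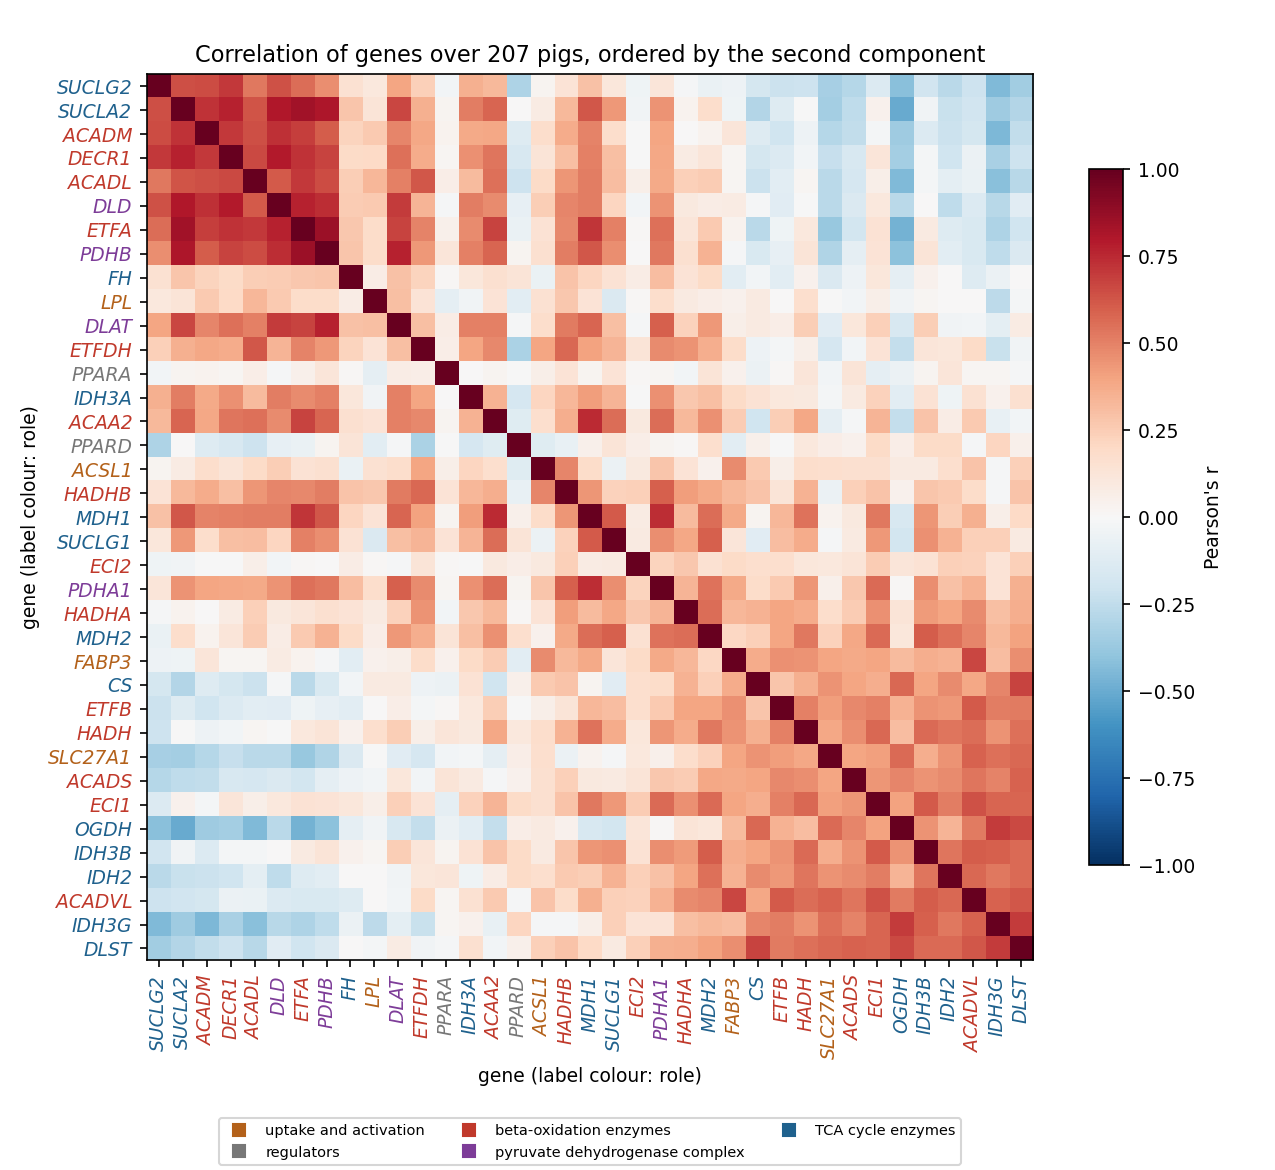
Pearson correlation of every pair of the 37 genes over 207 pigs, with genes ordered by their correlation with the second principal component and label colours giving the role. Red is positive and blue negative. A block from SUCLG2 to PDHB and a block from MDH2 to DLST each mix beta-oxidation with TCA cycle genes. The corner between them is blue in part, down to -0.50 for OGDH and SUCLA2, while MDH2 had no value below -0.063.

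What the pairs did show was a division that ran across both pathways. The first principal component of the 37 genes held 26.7% of their variance and the second 23.3%. Genes that followed the first most closely were ETFA (r = 0.87), PDHB (0.84), MDH1 (0.84), SUCLA2 (0.80), DLD (0.78), DLAT (0.77), ACAA2 (0.76) and PDHA1 (0.75). Genes that followed the second were DLST (0.84), IDH3G (0.81), ACADVL (0.81), IDH2 (0.73), IDH3B (0.71), OGDH (0.71), ECI1 (0.70), ACADS (0.68) and SLC27A1 (0.68). Each component thus joined genes of beta-oxidation with genes of the cycle. The components were computed from these genes, so the division describes them and was not tested.

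**Figure D3:**
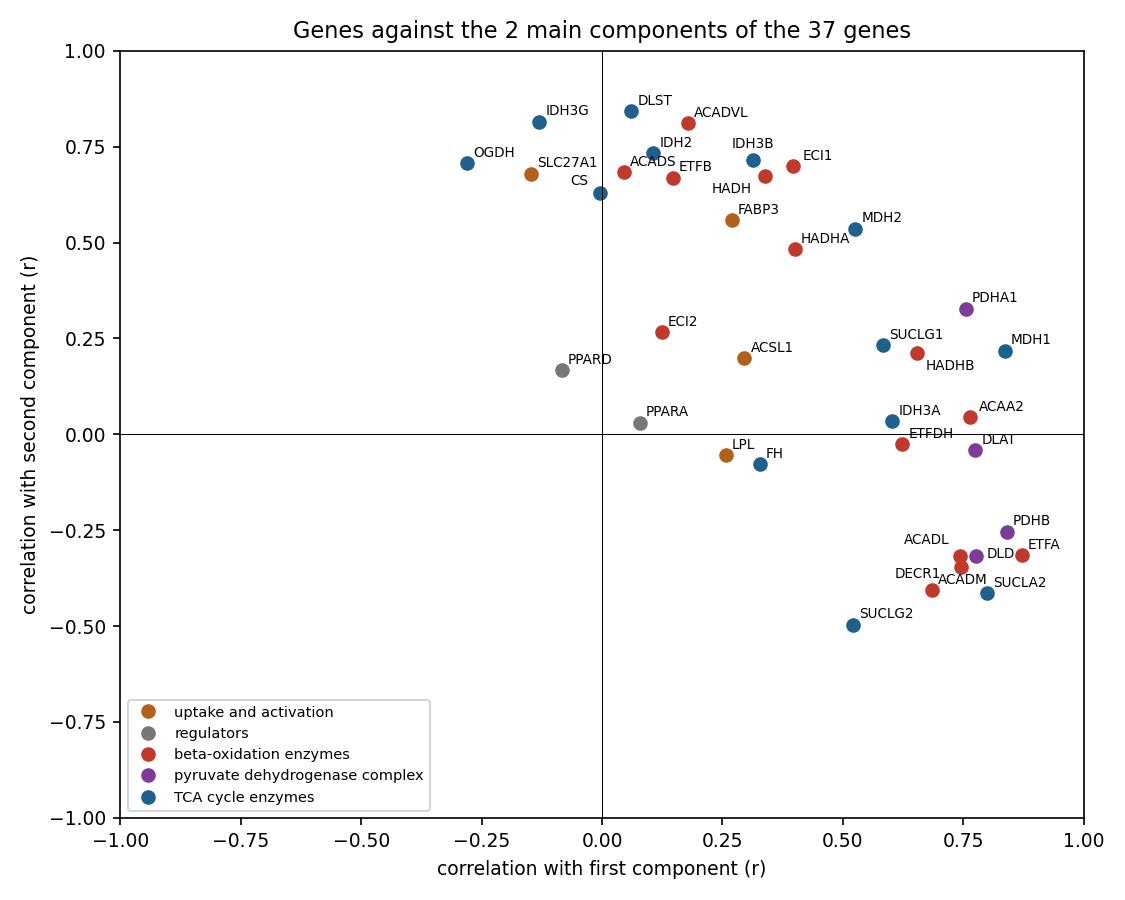
Correlation of each of the 37 genes with the first (horizontal axis) and second (vertical axis) principal component of these genes over 207 pigs, coloured by role. ETFA lies far right at 0.87 and DLST at the top at 0.84; beta-oxidation and TCA cycle genes lie in both places, and the 4 pyruvate dehydrogenase subunits all lie on the right between 0.75 and 0.84.

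The 5 closest pairs joined ETFA, the alpha subunit of the electron transfer flavoprotein, PDHB, the beta subunit of pyruvate dehydrogenase, SUCLA2, DLD, the lipoamide dehydrogenase shared by several complexes, and DECR1, the dienoyl-CoA reductase of unsaturated fatty acids. ETFA ran from 9.16 through a median of 10.41 to 11.11, PDHB from 9.83 through 10.81 to 11.18 and SUCLA2 from 8.89 through 10.57 to 11.37. ETFA and PDHB had r = 0.86 (rho 0.80), ETFA and SUCLA2 0.84 (rho 0.79), PDHB and SUCLA2 0.81 (rho 0.76), DLD and SUCLA2 0.80 (rho 0.78) and DECR1 and DLD 0.80 (rho 0.72). Each had p = 1e-05, the smallest that permuting could give here, and adjusted p = 2.52e-05. Over the remaining arrays the 5 values were 0.80, 0.78, 0.77, 0.76 and 0.73. Leaving out the 2 animals farthest from the median gave 0.86, 0.83, 0.80, 0.79 and 0.78. In the lower and the higher number series, ETFA and PDHB had r = 0.86 and 0.87.

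The 5 most opposed pairs set OGDH and IDH3G against SUCLA2, ETFA, ACADM, SUCLG2 and ACADL. OGDH, the dehydrogenase subunit of the 2-oxoglutarate dehydrogenase complex, ran from 10.52 through 11.14 to 11.71. OGDH and SUCLA2 had r = -0.50 (rho -0.46), ETFA and OGDH -0.47 (rho -0.36), ACADM and IDH3G -0.45 (rho -0.44), IDH3G and SUCLG2 -0.44 (rho -0.41) and ACADL and OGDH -0.44 (rho -0.40), each with permutation p = 1e-05 and adjusted p = 2.52e-05. Without the low-correlation arrays they lay nearer 0, at -0.37, -0.30, -0.42, -0.34 and -0.33. Without the 2 farthest animals they were -0.50, -0.43, -0.40, -0.45 and -0.43. OGDH and SUCLA2 had r = -0.41 in the lower and -0.76 in the higher number series.

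The division separated partners of the same enzyme. ETFA and ETFB encode the 2 subunits of the electron transfer flavoprotein, and over all animals their values as deposited were unrelated (r = -0.045, rho 0.017, permutation p = 0.520, adjusted p = 0.601, n = 207). Their r was -0.073 in the lower and 0.26 in the higher number series. It was 0.33 with 5 components of all probe sets taken out, as described below. ETFB ran from 9.58 through 10.36 to 11.00. ETFDH, the membrane enzyme that takes electrons from this flavoprotein, followed ETFA (0.49, adjusted p = 2.52e-05) and not ETFB (-0.016, adjusted p = 0.868). The correlation of ETFA with PDHB, a subunit of another complex, was 0.86.

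In the NAD-dependent isocitrate dehydrogenase, IDH3B and IDH3G rose and fell together (r = 0.60, adjusted p = 2.52e-05), while the catalytic IDH3A had r = 0.15 with IDH3B (adjusted p = 0.0525) and 0.040 with IDH3G (adjusted p = 0.649). In the permutation test on ranks IDH3A and IDH3B did pass (rho 0.17, adjusted p = 0.0241). Without the low-correlation arrays IDH3A had r = 0.14 with IDH3B and 0.16 with IDH3G. In the 2-oxoglutarate dehydrogenase complex, OGDH and the succinyltransferase DLST had r = 0.66 (adjusted p = 2.52e-05). DLD, which both complexes share, went with the pyruvate dehydrogenase instead: it had r = 0.74 with PDHB and 0.70 with DLAT, but -0.27 with OGDH (adjusted p = 0.000201) and -0.11 with DLST (adjusted p = 0.154). Without the low-correlation arrays these last 2 values were -0.12 and -0.040. In succinyl-CoA ligase the 2 beta subunits SUCLG2 and SUCLA2, which compete for the same alpha subunit, had r = 0.64, and the alpha subunit SUCLG1 had 0.43 with SUCLA2 and 0.12 with SUCLG2 (adjusted p = 0.132). By rank SUCLG1 and SUCLG2 passed (rho 0.19, adjusted p = 0.0144), and without the low-correlation arrays their r was 0.24.

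Other partners stayed together. HADHA and HADHB, the subunits of the mitochondrial trifunctional protein whose genes both lie on chromosome 3, had r = 0.42, and the cytosolic MDH1 and mitochondrial MDH2 had 0.56, each with adjusted p = 2.52e-05. The acyl-CoA dehydrogenases, which handle different chain lengths, split into pairs. The very-long-chain ACADVL followed the short-chain ACADS (0.54), and the long-chain ACADL followed the medium-chain ACADM (0.64), each with adjusted p = 2.52e-05. Across these pairs the values were -0.069 for ACADVL and ACADL (adjusted p = 0.400), -0.18 for ACADVL and ACADM (adjusted p = 0.0186), -0.16 for ACADL and ACADS (adjusted p = 0.0290) and -0.25 for ACADM and ACADS (adjusted p = 0.000848). The value for ACADVL and ACADM rested on the low-correlation arrays: it was -0.017 without them, its rho was -0.090 (adjusted p = 0.260), and in the higher number series it was 0.26. ACADL and ACADS had -0.12 and ACADM and ACADS -0.19 without those arrays, and the latter pair had 0.014 in the higher series.

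**Figure D4:**
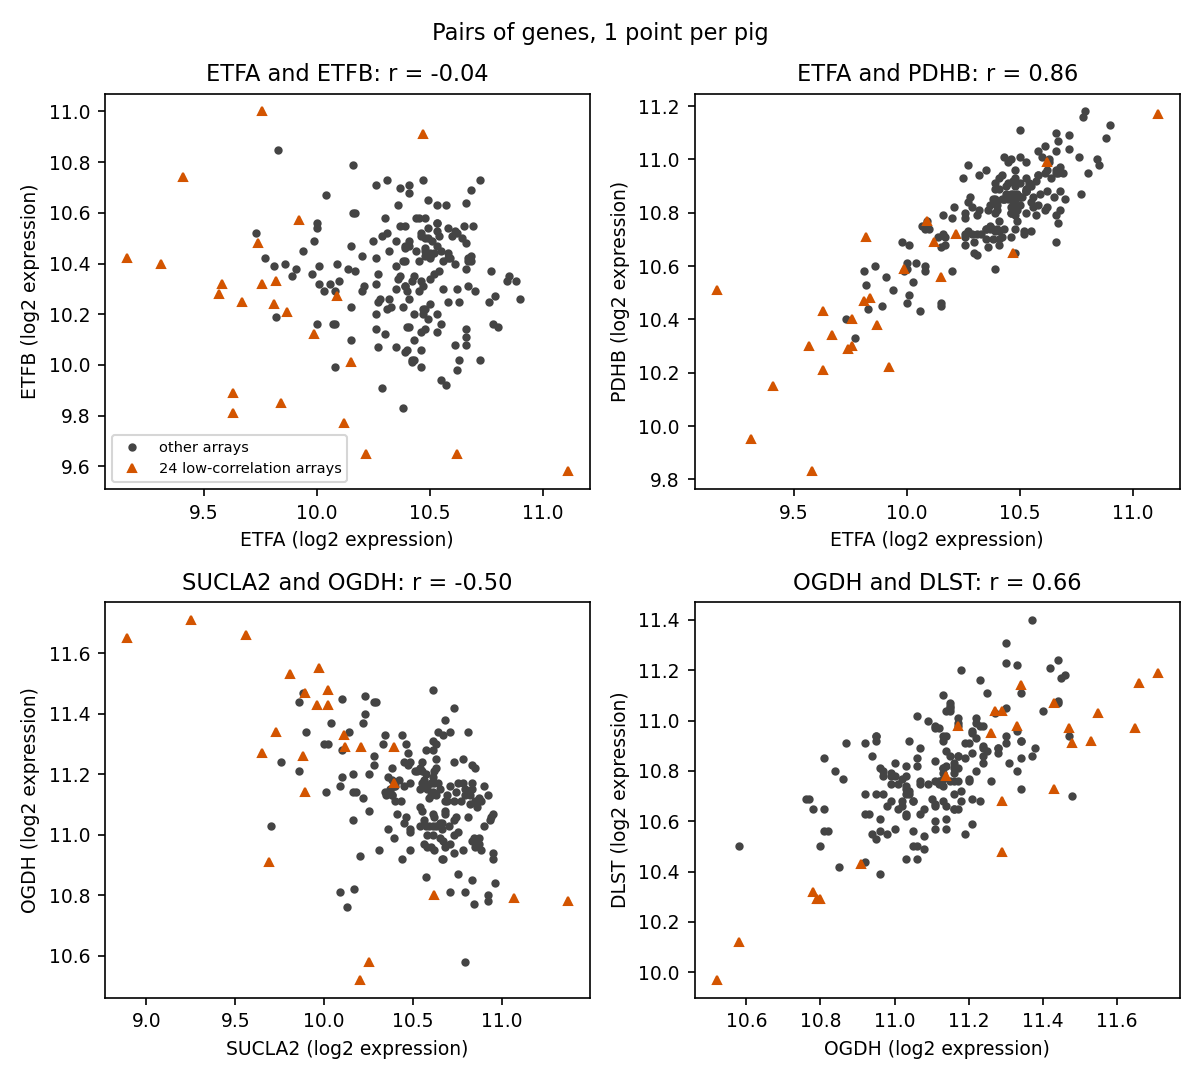
Log2 expression of 4 pairs of genes, 1 point per pig, with the 24 low-correlation arrays as orange triangles and all other arrays as dark circles. In the values as deposited, ETFA shows no relation to its partner ETFB over all pigs (r = -0.045) and a close relation to PDHB (0.86). OGDH falls as SUCLA2 rises (-0.50) and rises with DLST (0.66).

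Several array-wide measures moved with this division. The first component of the 37 genes had r = 0.55 with the median correlation of an array with the others and -0.62 with the second component of all probe sets, and the second had -0.70 with the first component of all probe sets. The difference between 3′ and 5′ control probe sets, a sign of RNA quality, had r = -0.21 with the first and 0.22 with the second. Their part in the division was not tested beyond the following fit. With the first 5 components of all probe sets taken out of every gene (30.2% of the variance of all probe sets), the share of pairs above 0.5 fell to 8.41% for these genes and to 0.0927% for all genes, while their median rose to 0.25. Of the pairs above 0.5 in the values as deposited, 28 stayed above it.

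Taking out these components also changed the opposed pairs. Of 8 pairs below -0.4, 1 stayed below 0, and OGDH and SUCLA2 came to 0.086. Several partners of the same enzyme with low or negative values as deposited rose. ETFA and ETFB came to 0.33, IDH3A with IDH3B and IDH3G to 0.34 and 0.39, OGDH with DLD to 0.28 and DLST with DLD to 0.48. Closer partners mostly fell: SUCLG2 and SUCLA2 to 0.17, OGDH and DLST to 0.39, and IDH3B and IDH3G to 0.40. ETFA with ETFDH and SUCLG1 with SUCLA2 each fell to 0.26, while HADHA and HADHB had 0.51. ACADVL and ACADM, which are separate enzymes, had 0.38. The 6 pairs within pyruvate dehydrogenase lay between 0.49 and 0.64. SUCLG1 and SUCLG2 stayed near 0 at 0.069. Without the low-correlation arrays alone, by contrast, ETFA and ETFB remained at -0.075.

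On the 24 low-correlation arrays several genes that followed the first component had lower means. ETFA averaged 9.89 ± 0.43 (SD, n = 24) there against 10.40 ± 0.23 (SD) on the others, MDH1 11.18 ± 0.27 against 11.69 ± 0.20, SUCLA2 10.04 ± 0.52 against 10.54 ± 0.27 and ACAA2, the last thiolase of beta-oxidation, 9.04 ± 0.44 against 9.50 ± 0.24. OGDH was 11.24 ± 0.34 against 11.12 ± 0.16 and CS 12.17 ± 0.32 against 12.12 ± 0.18. The 24 arrays overlapped with the others for each of these genes. They also came from animals with less drip loss, 4.20 ± 1.55% (SD, n = 24) against 5.53 ± 2.25% (SD), which touches the drip loss results below.

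Taken as averages, the 2 pathways rose and fell together. The mean of the 14 beta-oxidation genes ran from 9.01 through a median of 9.63 to 10.02, and the mean of the 13 TCA cycle genes from 10.56 through 10.97 to 11.22. They had r = 0.76 (rho 0.73), 0.73 without the low-correlation arrays, 0.76 in each number series and 0.70 with the 5 components taken out. With the mean of complex I subunits, beta-oxidation had r = 0.66 and the TCA cycle 0.76. These are descriptions of averages over chosen genes and carry no test.

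Most of the genes rose with the slow fibre markers, such as the slow myosin MYH7. Over 518 relations of the genes with regulators and marker means, 26 of the 37 genes had a positive correlation with the slow fibre mean that passed the permutation test after adjustment, and none a negative one. The smallest correlation that passed among the 518 had a size of 0.16, and 24.1% of all 6765 genes lay above it with the slow fibre mean and 10.8% below its negative. They included 14 of 14 beta-oxidation genes, 7 of 13 TCA cycle genes and 3 of 4 pyruvate dehydrogenase subunits. The closest was MDH1 (r = 0.61, rho 0.60, permutation p = 1e-05, adjusted p = 4.89e-05, n = 207), a malate-aspartate shuttle enzyme, followed by MDH2 (0.54), HADH (0.48) and SUCLG1 (0.47, or 0.26 without the low-correlation arrays). ACSL1, the acyl-CoA synthetase, had 0.049 and OGDH -0.095, neither of which passed. Over all genes the median correlation with the slow fibre mean was 0.033, against 0.23 for the 37. The slow fibre mean was lower on the low-correlation arrays, 12.26 against 12.42 on the others. Its r with the mean of the beta-oxidation genes was 0.57 over all arrays and 0.46 without those. With the mean of the TCA cycle genes it was 0.48 and 0.35. The part of array quality in these relations was not tested. In bulk muscle, more slow fibres and more RNA per fibre cannot be told apart.

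The fast fibre mean had r = 0.40 with the second component of the 37 genes and -0.13 with the first. Other lists had values of similar or larger size with the second component. These were 0.57 for the endothelial, -0.52 for the fibroblast, -0.37 for the macrophage and 0.31 for the slow fibre mean. With the first 5 components of all probe sets taken out, the fast fibre value was 0.16, the endothelial 0.53 and the fibroblast -0.14. IDH3G (0.47), DLST (0.46) and OGDH (0.44) rose with the fast fibre mean and ACADL fell with it (-0.33), each with adjusted p = 4.89e-05. In all 13 genes rose with it and 7 fell, against 19.9% and 17% of all genes past the same size. The fast fibre mean varied little over the animals, from 13.52 to 13.85. The median SD of its markers was 0.053, against 0.25 over all genes. What this small spread means for these correlations was not tested. The endothelial mean rose with DLST (0.56) and ECI1 (0.53) and fell with SUCLG2 (-0.22). Without the low-correlation arrays the values for DLST and SUCLG2 were 0.47 and -0.13. With the adipocyte mean the highest value was that of LPL (r = 0.28, rho 0.17, adjusted p = 0.000253), which fat cells also make, and 7 genes rose and 5 fell, against 20% and 11.2% of all genes. Of 14 beta-oxidation genes, 6 rose with the adipocyte mean and 1 fell. Of 13 TCA cycle genes 0 rose and 2 fell, and of 4 pyruvate dehydrogenase subunits 0 rose and 2 fell.

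Regulators of oxidative metabolism followed only some of the genes. TFAM, which packages and transcribes mitochondrial DNA, rose with DLD (r = 0.72, rho 0.69), DECR1 (0.70), SUCLA2 (0.70) and ACADM (0.70) and fell with OGDH (-0.49) and IDH3G (-0.45), each with adjusted p = 4.89e-05. In all 15 genes rose with TFAM and 13 fell, against 28.7% and 24.9% of all genes past the same size. Without the low-correlation arrays DLD had 0.68, and OGDH and IDH3G each had -0.27. With the 5 components taken out, DLD had 0.22 with TFAM and OGDH 0.072. SIRT3, the mitochondrial deacetylase, rose with 28 of the 37 genes and fell with none, led by HADH (0.47) and ACAA2 (0.46), against 26.6% and 9.76% of all genes.

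PPARGC1A, the coactivator known for driving mitochondrial genes, had little relation to them. It varied widely, from 5.96 through a median of 8.02 to 10.97, yet 3 genes rose with it and 7 fell, against 11.8% and 24.4% of all genes. The 3 were FABP3 (r = 0.30, rho 0.34, adjusted p = 0.000216), ACSL1 (0.27, adjusted p = 0.000398) and ACADM (0.23, adjusted p = 0.00287), and the strongest decrease was that of SUCLG1 (-0.23, adjusted p = 0.00212). The median over the 37 genes was -0.046, close to the -0.055 over all genes. With the 5 components taken out, FABP3 came to 0.47 and SUCLG1 to 0.20.

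The carnitine palmitoyltransferases, which admit long-chain fatty acids to the mitochondrion, differed in how many of the 37 genes passed with them. With CPT1B 23 rose and 1 fell, at a median r of 0.33 against -0.019 over all genes. With CPT1A 7 rose and 1 fell, at 0.056 against 0.010. The share of all genes past the same size was not counted for either or for PDK4. Whether they followed different genes was not tested. CPT1B, the muscle form, rose with ACADVL (r = 0.74, rho 0.70), FABP3 (0.62), ECI1 (0.53) and DLST (0.53), each with adjusted p = 4.89e-05. FABP3 and ACADVL themselves had r = 0.67, and it was 0.68 with the 5 components taken out, as was CPT1B with ACADVL at 0.71. CPT1A, the liver form, rose with ACSL1 (0.52, rho 0.54) and HADHB (0.34), each with adjusted p = 4.89e-05. PDK4, the kinase that shuts pyruvate dehydrogenase in fasting, rose with the same 2 genes, at 0.38 (adjusted p = 4.89e-05) and 0.25 (adjusted p = 0.00180), and these values were 0.42 and 0.28 without the low-correlation arrays. In all 4 genes rose with PDK4 and 3 fell, at a median r of -0.0025 against -0.027 over all genes.

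With drip loss, 2 of the 37 genes rose and none fell, which is close to the background. Each gene was regressed on the trait with limma, with Benjamini-Hochberg adjustment across the 23935 probe sets. Over all 6765 genes 3.96% rose and 2.11% fell by the same rule, and over all probe sets 1.94% and 2.67%. An unadjusted p under 0.05 was reached by 11 of the 37 genes, all with slopes above 0, against 23.9% of all genes in either direction. When p-values were adjusted over 1 probe set per gene instead, 5 rose and none fell, against 4.98% and 2.65% of all genes.

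The gene with the steepest slope was ECI1, the mitochondrial enoyl-CoA isomerase that readies unsaturated fatty acids for beta-oxidation. In the 51 animals with the least drip loss (up to 3.49%) its lowest, median and highest values were 8.89, 9.74 and 10.20, and in the 51 with the most (from 7.25%) they were 9.27, 9.83 and 10.38. The groups overlapped almost wholly, and 31 of the 51 upper animals lay above the median of the lower ones. ECI1 rose by 0.080 ± 0.020 log2 (SE, n = 207) per SD of drip loss, or 5.69%, with a limma adjusted p of 0.0106. Its slope was 0.081 in the lower and 0.096 in the higher number series. Within the 10 blocks of title numbers, of 10 to 35 animals, its correlation with drip loss was above 0 in 8, from -0.29 to 0.42.

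SUCLG1, the alpha subunit of succinyl-CoA ligase, was the other. Its lowest, median and highest values were 11.72, 12.36 and 12.69 in the 51 animals with the least drip loss and 12.05, 12.44 and 12.68 in the 51 with the most. The ranges overlapped, with nearly the same top and a lower bottom in the animals with little drip loss. It rose by 0.043 ± 0.012 (SE, n = 207), with a limma adjusted p of 0.0145, by 0.038 in the lower and 0.061 in the higher series, and its correlation was above 0 in 7 of 10 blocks.

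Neither call held when the low-correlation arrays or the blocks were taken into account. Without the 24 arrays the slopes were 0.059 ± 0.019 for ECI1 (adjusted p = 0.115) and 0.024 ± 0.0099 for SUCLG1 (adjusted p = 0.237). With the blocks as a term they were 0.068 ± 0.021 (adjusted p = 0.0912) and 0.028 ± 0.012 (adjusted p = 0.257). ECI1 averaged 9.55 ± 0.46 on the 24 arrays and 9.77 ± 0.27 on the others, and SUCLG1 12.11 ± 0.21 and 12.40 ± 0.13. The means of the slow fibre and fibroblast markers were 12.26 and 7.70 on the 24 arrays and 12.42 and 7.90 on the others.

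By role, the slopes on drip loss over all animals were mostly small and positive. They were above 0 for 30 of the 37 genes, with a median of 0.019, against 61.005% of all genes and a median of 0.0080. Beta-oxidation genes had a median of 0.023 (12 of 14 above 0), TCA cycle genes 0.020 (11 of 13), pyruvate dehydrogenase subunits 0.029 (4 of 4) and uptake genes -0.011 (1 of 4). Without the low-correlation arrays the medians of beta-oxidation and TCA cycle genes were 0.0058 and 0.013, and with 5 components of all probe sets in the fit they were 0.0020 and 0.011. IDH3B (0.035 ± 0.011, adjusted p = 0.0506), PDHB (0.044 ± 0.014, adjusted p = 0.0564) and MDH1 (0.054 ± 0.018, adjusted p = 0.0613) lay just outside the threshold and inside it when adjusted over 1 probe set per gene (0.0380, 0.0429 and 0.0473). CS had -0.011 ± 0.014. Complex I subunits had a median slope of 0.044, with 14 of 33 rising at an adjusted p under 0.05 over all probe sets. Their calls were not looked at without the low-correlation arrays or with the blocks.

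**Figure D5:**
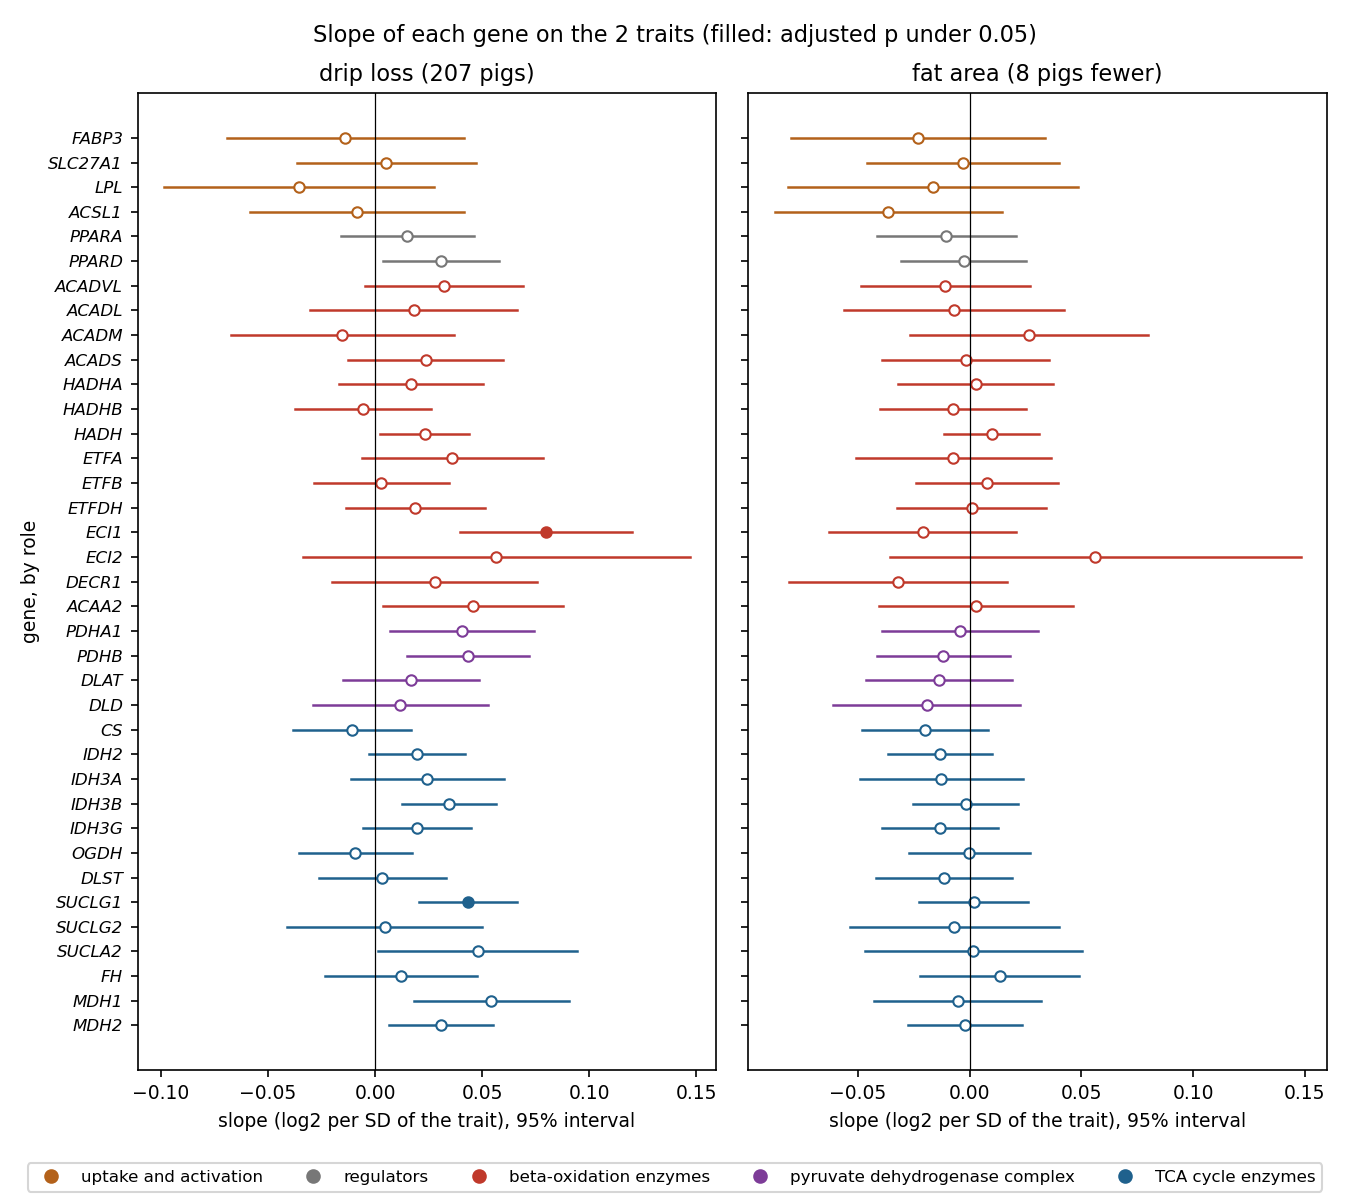
Slope of each of the 37 genes on drip loss (left, 207 pigs) and fat area (right, 8 pigs fewer) in log2 units per SD of the trait, with 95% intervals from limma; filled points passed an adjusted p under 0.05 over all probe sets. Most drip loss slopes lie right of 0 and only ECI1 and SUCLG1 are filled; the fat area slopes lie around 0 and every interval includes it.

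With fat area, none of the 37 genes rose or fell by limma, and none had an unadjusted p under 0.05, a level reached by 7.94% of all genes. The background of calls was as thin: 0.0296% of the 6765 genes rose and 0.118% fell, or 0.046% and 0.0752% of all probe sets. Slopes were below 0 for 27 of the 37 genes with a median of -0.0069, against -0.0015 over all genes. The 3 smallest p-values belonged to ACSL1 (-0.036 ± 0.026, SE, adjusted p = 0.823), CS (-0.020 ± 0.014, adjusted p = 0.825) and DECR1 (-0.032 ± 0.025, adjusted p = 0.852).

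ACSL1 had lowest, median and highest values of 10.09, 10.81 and 12.05 in the 49 animals with the smallest fat area (up to 12.6 cm2) and 9.96, 10.76 and 11.46 in the 49 with the largest (from 17.2 cm2), which overlap. For 36 of the 37 genes the whole 95% interval lay within 0.1 log2 per SD of fat area, and the exception was ECI2, whose interval reached 0.15. CPT1A, which is outside the 37 and correlated with ACSL1, fell with fat area by 0.13 ± 0.030 (SE), with a limma adjusted p of 0.0381. The labels give no sex. With the sex-linked transcripts EIF1AY and SRY as a covariate, 0 of 23935 probe sets passed for fat area, so the CPT1A call did not hold there. PDK4 had a slope of -0.14 ± 0.059 (adjusted p = 0.578) and CPT1B -0.040 ± 0.024 (adjusted p = 0.775).

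No gene of the 37 was shown to respond differently to the 2 traits. In a limma fit with both traits the slope on drip loss minus that on fat area was above 0 for 31 of the 37 genes, against 61.7% of all genes. An unadjusted p under 0.05 was reached by 5, against 15.2% of all genes, and none passed, against 0.347% of all probe sets. ECI1 came closest, with 0.081 for drip loss, -0.013 for fat area and a difference of 0.094 ± 0.028 (SE, adjusted p = 0.0839). Slopes also did not pass for a difference between the number series, with 0 of 37 for either trait and none at an unadjusted p under 0.05, where 0% of all probe sets passed for drip loss and 0.00418% for fat area.

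Other genes of the same pathways also had few calls. Over all 6765 genes, 3.96% rose with drip loss and 0.118% fell with fat area by the same rule. Of 27 further fatty acid oxidation genes, 1 rose with drip loss, ECHDC2, an enoyl-CoA hydratase-like protein (0.072 ± 0.019, SE, n = 207, limma adjusted p = 0.0147). With fat area 1 fell, CPT1A, whose call did not hold with the sex-linked transcripts as a covariate. Slopes on fat area were below 0 for 23 of these 27 genes, with a median of -0.015. For the 14 beta-oxidation genes 7 were below 0, with a median of -0.00045, and over all 6765 genes 3596 were. This difference between the lists was not tested. ECHDC2 ran from 7.13 through 8.02 to 8.55 in the 51 animals with the least drip loss and from 7.59 through 8.06 to 8.54 in the 51 with the most. It did not pass for fat area. There its median was 8.16 in the 49 animals with the smallest fat area and 7.97 in the 49 with the largest. Of the latter, 9 lay above the median of the former. Of 19 further genes around pyruvate and the cycle, 2 rose with drip loss, SDHB (0.044 ± 0.014, adjusted p = 0.0423) and SDHD (0.060 ± 0.017, adjusted p = 0.0276), both subunits of succinate dehydrogenase, and none passed for fat area.

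SDHB ran from 11.74 through 12.11 to 12.57 in the 51 animals with the least drip loss and from 11.74 through 12.22 to 12.52 in the 51 with the most. SDHD ran from 10.96 through 12.08 to 12.40 and from 11.59 through 12.13 to 12.44. As with ECI1, the groups overlapped for all 3 genes. Their calls were not looked at without the low-correlation arrays or with the blocks, where those of ECI1 and SUCLG1 did not hold. Over all probe sets 0.831% passed for drip loss without those arrays and 0.623% with the blocks as a term. Of 6 measured regulators none passed for either trait. PPARGC1A came closest, with lowest, median and highest values of 6.62, 8.60 and 10.97 in the 51 animals with the least drip loss and 6.19, 7.49 and 10.50 in the 51 with the most, and a slope of -0.27 ± 0.087 (adjusted p = 0.0510; 0.0384 when adjusted over 1 probe set per gene).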

How the data were processed

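The authors deposited 1 log2 expression value per probe set and array; per the submitters' processing notes, GCOS 1.1.1 and PLIER were used, and scaling between arrays is not given in the sources used here. These log2 values were used as deposited. Tests covered 23935 probe sets, after removal of 188 controls. Symbols came from the array annotation, with 10069 probe sets holding 1 symbol, 198 several and 13668 none; 9961 of the first matched the RefSeq gene table. The brightest probe set stood for a gene.

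Regressions were run with limma 3.58.1 (R 4.3.3; lmFit, then eBayes) on traits scaled to SD 1, two-sided, with Benjamini-Hochberg adjustment over all tested probe sets and a threshold of 0.05. Correlations across animals used 100000 permutations in Python 3.11.15. As background, the share of all genes or gene pairs past the smallest correlation that passed is given. In simulated data on these probe sets, limma recovered 88% of slopes of 0.1 for drip loss and 90% for fat area, but 10% and 20% of slopes of 0.05. The simulated noise was independent between probe sets, and 50 probe sets were changed at each slope. Named were genes that passed, the 3 smallest p-values per trait, CPT1A, CPT1B, PPARGC1A and PDK4, the 5 highest and 5 lowest pairs, and the 10 genes most like each pathway mean; partners of the same enzyme and examples of levels, markers and regulators were added after their values were seen. The members and lists were chosen with earlier results of these data known. Alternatives covered normalization, probe set choice, array exclusions, blocks and covariates. The number of arrays limits the precision.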

Additional observations from a re-analysis of the deposited data

How the results depend on the processing

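The count of genes rising with drip loss, 2 in the reported setting, was 5 when adjusted over 1 probe set per gene, 5 over probe sets brighter than the median, 5 with fat area as a covariate and 5 with the mean of a gene's probe sets. It was 0 with the blocks of title numbers, 0 without the low-correlation arrays, 0 with 5 principal components and 0 with the blocks and without those arrays, where the beta-oxidation median turned to -0.0068. IDH3B passed in 5 of 18 alternatives, while ECI1 and SUCLG1 each failed in 4 of 18. In all 18 the count falling with drip loss and both counts for fat area stayed at 0. The 3 median correlations within and between the pathways stayed between 0.18 and 0.31 over 10 alternatives. The causes were not tested. No paired analysis was possible because each animal gave 1 array. Slopes of 0.05 were mostly missed in the simulated data, whose noise was independent between probe sets, so they set no firm limit for the real arrays. SUCLG1 passed for drip loss with a slope of 0.043. Dim probe sets such as those of PPARA limit any statement on that gene.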

Other observations

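Outside the 37 genes, the mean of the 14 beta-oxidation genes was followed most closely by the genes below, as a description with no test. NDUFS1, a complex I subunit, led with r = 0.72 (207 animals; 0.69 without the low-correlation arrays), then SDHB (0.70), SLC25A4, the ADP/ATP carrier (0.70), NNT, which makes NADPH in mitochondria (0.69), NDUFV2 (0.65), LDHB, the lactate dehydrogenase of oxidative tissue (0.64), COX7A1, a muscle subunit of cytochrome oxidase (0.64), APOO (0.63) and PTGR2 (0.62). The mean of the 13 TCA cycle genes was followed by SDHB (0.78), SLC25A12, an aspartate-glutamate carrier (0.72), ATP5B, an ATP synthase subunit (0.72), NDUFAB1 (0.71), NDUFS1 (0.69), GOT2 (0.69), COX5B (0.68) and IMMT, which shapes the inner membrane (0.68). In each list of 10, genes with only a locus number are not named.

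The difference between the 2 means was also followed, in genes chosen after their values were seen. When beta-oxidation was high relative to the TCA cycle, HSDL2 (r = 0.54), LDHB (0.52), CAT, catalase (0.49), and MYL2, the slow myosin light chain (0.45), were high over the 207 animals. The difference had r = 0.38 with the slow and -0.29 with the fast fibre mean, and 0.042 with drip loss and 0.061 with fat area.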
